A study of Mus musculus with 24 samples.

Results

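The 34 genes described here are targets and regulators of ATF4, the transcription factor of the integrated stress response, in fragments of the ileum, the distal small intestine, of mice. They were chosen by gene symbol as a list, with earlier results of these data known. Their rows were found among the 57126 gene identifiers of the count table. The list falls into 5 arms: 6 genes of serine synthesis and one-carbon metabolism, 6 other enzymes of amino acid and mitochondrial metabolism, 5 amino acid carrier genes, 13 stress regulators, and 4 genes for secreted factors or a receptor. Of the 34, 33 passed the filter on low counts and were tested. Fgf21, a secreted metabolic hormone gene, never exceeded 1 count per library and was left untested.

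The fragments came from male C57BL/6J mice starved for 4 h, were kept for 8 h with an additive, and were wild-type in every library. The solvent group (DMSO) had 0.6% DMSO in the 3 libraries used. The tCDCA group (4 libraries) received tauro-conjugated chenodeoxycholic acid, a conjugated bile acid, with 200 µM stated for 3 of them. The other 4 groups received an extract, CME(-) or CME(+), of donors that were wild-type (WT) or Asbt-/-: WT CME(-) with 4 libraries, WT CME(+) with 3, Asbt-/- CME(-) with 3 and Asbt-/- CME(+) with 4. Asbt is the uptake carrier by which ileal cells take up bile acids, and its deletion is in the donors of the extract, never in the treated tissue. The labels give no long form of CME, and CME(+) was read as the form depleted of bile acids. The ground is that 200 µM is stated for the CME(-) libraries other than replicate 1 and for no CME(+) library. Whether the fragments of a group stem from different mice is not stated, and the p-values therefore describe only how these samples spread, which may be technical spread. No gene was deleted in the treated tissue, so there was no targeted gene to check.

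In the integrated stress response, kinases that sense misfolded protein, amino acid shortage, viral RNA or haem shortage phosphorylate the initiation factor eIF2. Protein synthesis falls in general, while the mRNA of Atf4 is translated more, and ATF4 protein then turns on genes that make and import amino acids, load tRNAs and, when stress lasts, end the cell's life. RNA counts measure mRNA levels only, and neither eIF2 phosphorylation nor ATF4 protein was measured here. In the intestine this response is known from infection, amino acid shortage and mitochondrial damage.

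ATF4 binds, with a partner of the C/EBP family, a composite element often written TGATGNAA, where N is any base. Both strands of the RefSeq promoter windows (GRCm38.p6, 250 bases before to 50 after each start) were searched for it. Of the 34 genes 29 had a window, and 10 of these held a match: Asns, Pck2, Pycr1, Slc7a11, Atf3, Chac1, Trib3, Nupr1, Vldlr and Fgf21. Over all 27025 genes with windows 4.51% held it. Because the 34 were listed as targets and regulators of ATF4, setting them beside this share is no test. Among the genes with a window, a match was present in 5 of the 15 that rose with tCDCA and in 4 of the 13 tested genes that did not pass. The palindrome TGACGTCA, the cAMP response element that related factors bind, was found in 1 of the 29, Ppp1r15a, against 2.03% of all genes. The windows of the 5 genes that rose with tCDCA and hold TGATGNAA are printed because they show where the letters stand; capitals mark each match, which reads as the reverse complement where it lies on the strand opposite to the gene.

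Chac1 (GRCm38.p6 chr2:119350992-119351291, plus strand): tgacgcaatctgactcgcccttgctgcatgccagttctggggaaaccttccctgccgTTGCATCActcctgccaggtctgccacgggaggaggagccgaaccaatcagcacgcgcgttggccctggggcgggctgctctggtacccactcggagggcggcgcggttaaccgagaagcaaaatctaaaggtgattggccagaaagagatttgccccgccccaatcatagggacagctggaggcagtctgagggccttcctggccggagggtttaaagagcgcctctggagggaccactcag
Slc7a11 (GRCm38.p6 chr3:50443564-50443863, minus strand): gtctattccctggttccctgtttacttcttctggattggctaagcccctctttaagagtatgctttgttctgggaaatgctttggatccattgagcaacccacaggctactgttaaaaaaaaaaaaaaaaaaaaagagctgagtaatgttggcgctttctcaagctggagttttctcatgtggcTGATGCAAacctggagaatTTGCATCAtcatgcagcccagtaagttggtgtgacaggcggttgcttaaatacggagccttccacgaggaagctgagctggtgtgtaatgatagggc
Asns (GRCm38.p6 chr6:7693160-7693459, minus strand): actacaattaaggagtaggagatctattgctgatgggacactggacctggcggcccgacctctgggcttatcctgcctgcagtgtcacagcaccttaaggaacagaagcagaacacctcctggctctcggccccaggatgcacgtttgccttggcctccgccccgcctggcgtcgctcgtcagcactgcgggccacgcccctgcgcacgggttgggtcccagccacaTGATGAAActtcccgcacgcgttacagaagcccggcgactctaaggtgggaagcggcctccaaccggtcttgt
Trib3 (GRCm38.p6 chr2:152344011-152344310, minus strand): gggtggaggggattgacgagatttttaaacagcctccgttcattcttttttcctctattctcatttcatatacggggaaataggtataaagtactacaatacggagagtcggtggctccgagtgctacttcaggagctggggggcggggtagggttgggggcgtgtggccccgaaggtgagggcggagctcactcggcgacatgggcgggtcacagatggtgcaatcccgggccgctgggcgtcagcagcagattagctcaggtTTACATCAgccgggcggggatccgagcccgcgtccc
Nupr1 (GRCm38.p6 chr7:126625421-126625720, minus strand): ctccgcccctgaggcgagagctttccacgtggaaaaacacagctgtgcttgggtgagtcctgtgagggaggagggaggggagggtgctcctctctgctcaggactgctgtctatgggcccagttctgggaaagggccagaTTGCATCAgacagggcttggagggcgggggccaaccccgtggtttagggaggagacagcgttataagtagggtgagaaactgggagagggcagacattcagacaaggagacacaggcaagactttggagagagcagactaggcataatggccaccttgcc

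In Slc7a11 there are 2 matches, on opposite strands, which start 66 and 47 bases before the start of the gene. The Asns match starts 23 bases before the start, that of Nupr1 110 and that of Chac1 193 bases before it. The Trib3 match begins 14 bases after the start. A match is a run of letters, and binding was not measured.

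Levels are given in CPM, counts relative to the TMM-scaled total of the library, for the libraries numbered 2, 3 and 4 in that order, and then for the library numbered 1. Column names carry 2 prefixes, the first for the libraries numbered 1 and the second for the others, and the fit has a term for the prefix. The DMSO group has no used library of the first prefix, so in comparisons with DMSO the other groups alone set the prefix term. Where a first-prefix library lies above or below the used DMSO libraries, prefix and additive cannot be told apart in it. The used libraries held 2755149 to 5602265 counts. One library stood apart: tCDCA replicate 3 had 5.29% of its counts in mitochondrial rRNA (exact 95% interval 5.26 to 5.31%, counting error only), against 33.14% and 28.14% in the other second-prefix tCDCA libraries and 19.46 to 34.6% with DMSO. It was the highest of the 3 second-prefix tCDCA libraries for 22 of the 33 genes, against 38.5% of all 13125 genes tested. Calls that were lost without this library are named beside their genes. The 6 first-prefix libraries had 6.78 to 8.29%. All 12 enterocyte markers and all 7 Paneth cell markers were detected in every group.

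The first comparison asked which of these genes responded to tCDCA. Of the 33 tested, 17 rose against DMSO and 0 fell (edgeR quasi-likelihood test, adjusted p under 0.05 over all 13125 genes). Over all genes 2.52% rose and 3.16% fell, 5.68% in either direction. The list was chosen with earlier results of these data known, so these shares are a scale beside it and not a test. The median log2 fold change of the 33 was 0.94, and 0.92 without Slc7a3 and Pycr1, whose counts were very low, against 0.0 over all genes. Rises came from each of the 5 arms: 4 of 6 genes of the serine and one-carbon arm, 1 of 6 other enzymes, 3 of 5 carriers, 8 of 13 regulators and 1 of 3 secreted factors or receptors. In 25 of the 33 every second-prefix tCDCA library lay above every DMSO library, which held for 9.33% of all genes, and in 0 every such library lay below, which held for 9.78%. Without tCDCA replicate 3 there were 13 rises, 12 of them among the 17, and the calls of Psph, Atf5, Trib3, Nupr1 and Gdf15 were lost. With each of the 7 libraries left out in turn, 8 of the 17 kept their call every time (Chac1, Psat1, Mthfd2, Slc7a11, Slc7a1, Asns, Cebpb and Ppp1r15a) and 9 lost it at least once. Without DMSO replicate 3 there were 10, and without both 6: Chac1, Psat1, Mthfd2, Slc7a1, Slc7a11 and Ppp1r15a. Without the prefix term 6 passed, and with the tCDCA and DMSO libraries fitted alone 9.

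**Figure D1:**
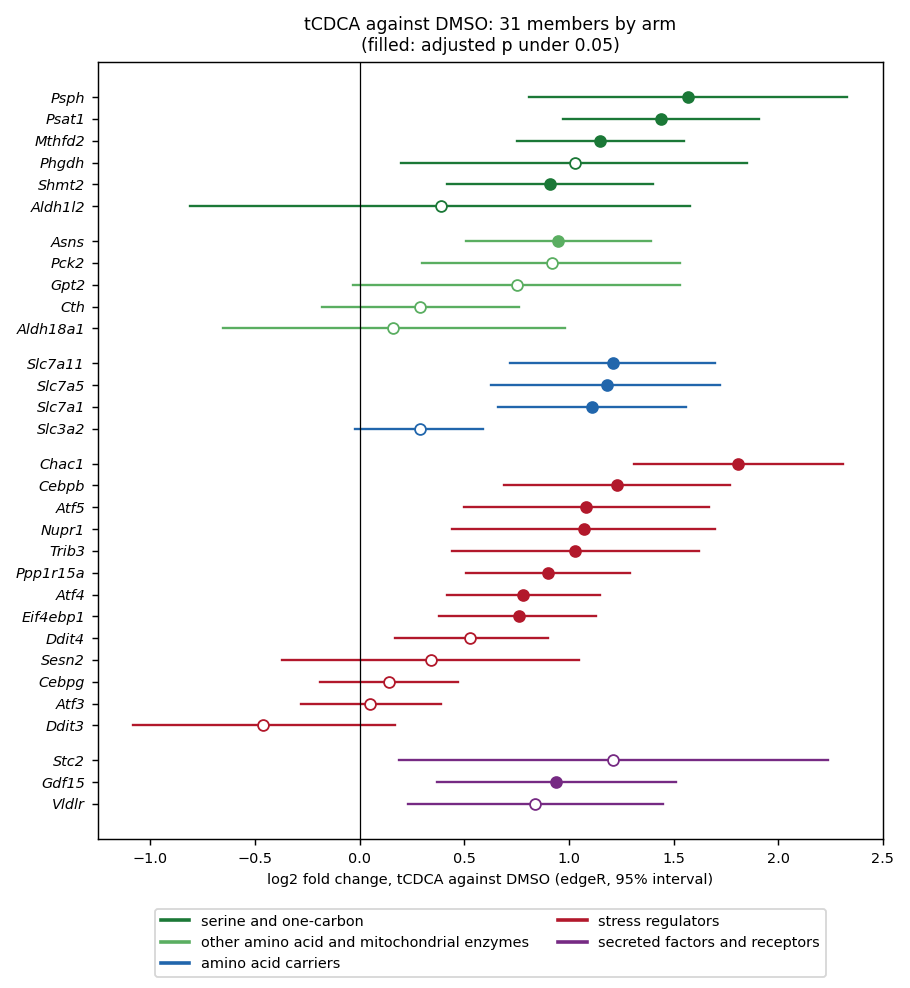
Log2 fold change of 31 of the genes with tCDCA against DMSO (horizontal axis, edgeR estimate and 95% interval, 4 and 3 libraries), grouped by arm and ordered within it; filled points passed the threshold. The estimates reach from -0.46 for Ddit3 to 1.81 for Chac1, and Slc7a3 and Pycr1, with very low counts, are left out.

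In the serine and one-carbon arm, Psat1 and Psph, of serine synthesis, and Mthfd2 and Shmt2, of mitochondrial one-carbon metabolism, rose, while Phgdh and Aldh1l2 did not pass. Psat1 (ENSMUSG00000024640), the transaminase of serine synthesis, was at 45.5, 86.2 and 41.5 CPM and then 76 with tCDCA, against 19, 23.8 and 19.9 with DMSO. Every tCDCA library lay above every used DMSO library, and the fitted rise was 1.44 ± 0.23 log2 units (SE; 2.71-fold, edgeR adjusted p = 5.95e-05). The first-prefix libraries of every group lay above DMSO for Psat1, from 52.4 to 76 CPM. Mthfd2 (ENSMUSG00000005667), a mitochondrial folate enzyme, was at 53.6, 82.5, 80.4 and 104 CPM with tCDCA and at 32.4, 29.7 and 34.1 with DMSO. The groups did not overlap, and the rise was 1.15 ± 0.2 (2.22-fold, edgeR adjusted p = 1.23e-04). For Mthfd2 too the first-prefix libraries of every group lay above DMSO, from 70.4 to 104 CPM. Shmt2, the mitochondrial enzyme that splits serine into glycine and a one-carbon unit, was at 31.6, 51.4, 45.2 and 36.3 CPM against 22.3, 28.7 and 22.2 (0.91 ± 0.24, edgeR adjusted p = 0.0178; 0.0654 without DMSO replicate 2 and 0.074 without DMSO replicate 4).

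Psph, the phosphatase of the last step, was at 15.3, 25.6, 8.48 and 20.8 CPM with tCDCA and at 5.81, 4.9 and 4.99 with DMSO. Its groups did not overlap, and it rose by 1.57 ± 0.37 (2.97-fold, edgeR adjusted p = 0.00709), with the lowest tCDCA library close to DMSO. In every group its first-prefix library lay above DMSO, from 10.6 to 20.8 CPM. Without tCDCA replicate 3, its highest library, it did not pass (1.2, edgeR adjusted p = 0.0618). Phgdh, the enzyme of the first step, was at 23.8, 18.5, 19.8 and 8.03 CPM against 3.36, 13.6 and 10.2. The second-prefix libraries stood above DMSO and the first-prefix one among them, and the change of 1.03 ± 0.41 did not pass (edgeR adjusted p = 0.15). Aldh1l2, a mitochondrial formyl-folate dehydrogenase, lay between 2.53 and 5.48 CPM with tCDCA and overlapped with DMSO (2.45 to 3.88).

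Of the 6 other enzymes, Asns (ENSMUSG00000029752), which makes asparagine, rose. It was at 33.6, 69.7, 45.2 and 131 CPM with tCDCA and at 22.9, 29 and 27.4 with DMSO. The groups did not overlap, and the rise was 0.95 ± 0.22 (1.93-fold, edgeR adjusted p = 0.00496). The first-prefix libraries of every group read high for Asns, from 74.3 to 131 CPM. The prefix term is set for this by the other groups alone. The call was lost without that term, with these groups alone and without both libraries numbered 3. The first-prefix tCDCA library was 0.33 (log2 of CPM + 1) above the removed first-prefix DMSO library. Pck2, the mitochondrial enzyme that makes phosphoenolpyruvate, was at 15.3, 19.6, 17 and 18.4 CPM against 12.8, 5.25 and 9.14. Each of its tCDCA libraries lay above DMSO, and the change of 0.92 ± 0.3 missed the threshold (edgeR adjusted p = 0.0664). Gpt2, an alanine transaminase, differed by 0.75 ± 0.39, Cth, which makes cysteine, by 0.29 ± 0.23, and Aldh18a1, of proline synthesis, by 0.16 ± 0.4, none past the threshold; the Aldh18a1 difference was -0.26 without DMSO replicate 2 and -0.08 without tCDCA replicate 3. Pycr1, the last enzyme of proline synthesis, had 9, 13, 9 and 38 counts with tCDCA and 3, 0 and 6 with DMSO, too few for a useful fold (edgeR adjusted p = 0.115).

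Among the carriers, Slc7a11, Slc7a1 and Slc7a5 rose by similar amounts. Slc7a11 (ENSMUSG00000027737), which imports cystine in exchange for glutamate, was at 38.7, 37.6, 35.8 and 47.7 CPM with tCDCA and at 19, 12.2 and 14.1 with DMSO. Its second-prefix tCDCA libraries lay close together and well above DMSO, and the rise was 1.21 ± 0.24 (2.31-fold, edgeR adjusted p = 0.00115). The first-prefix libraries of every group lay above DMSO for Slc7a11, from 22.8 to 47.7 CPM. Slc7a1, a carrier of cationic amino acids, was at 48.2, 46.7, 54.7 and 55.6 CPM against 29.3, 19.2 and 18.3, also without overlap (1.11 ± 0.22, 2.16-fold, edgeR adjusted p = 0.00109). Its first-prefix libraries lay above DMSO in every group, from 36.9 to 55.6 CPM. Slc7a5, the light chain of a carrier of large neutral amino acids, was at 23.4, 43.6 and 44 CPM with tCDCA in the second-prefix libraries and at 14.4, 10.8 and 21.3 with DMSO. All first-prefix libraries read low for it, from 7.09 to 18.2 CPM, and the fitted rise was 1.18 ± 0.27 (2.26-fold, edgeR adjusted p = 0.00436; 0.0667 without DMSO replicate 3). Slc3a2, the heavy chain with which Slc7a5 and Slc7a11 proteins pair, was at 261, 314, 286 and 239 CPM against 240, 215 and 254, a change of 0.29 ± 0.15 that did not pass (edgeR adjusted p = 0.333). Slc7a3, another cationic carrier gene, had 10, 12, 4 and 6 counts with tCDCA and 0, 0 and 1 with DMSO (edgeR adjusted p = 0.111).

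The regulator arm split. Chac1 (ENSMUSG00000027313), which degrades glutathione, was at 44.1, 76.8, 55.3 and 61.4 CPM with tCDCA and at 18.6, 12.2 and 17.7 with DMSO. The lowest tCDCA library was above the highest used DMSO library, and the rise of 1.81 ± 0.25 (3.51-fold, edgeR adjusted p = 5.77e-06) was the largest among the 31 genes with usable counts. The first-prefix libraries of every group lay above DMSO for Chac1, from 34.1 to 61.4 CPM. Atf4 itself (ENSMUSG00000042406) was at 147, 186, 182 and 147 CPM against 108, 88.1 and 107. It did not overlap with DMSO and rose by 0.78 ± 0.18 (1.72-fold, edgeR adjusted p = 0.00491; 0.0576 without DMSO replicate 3).

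Cebpb, a partner of ATF4 on DNA, was at 41.1, 50.1, 33.9 and 25.6 CPM against 15, 13.3 and 22.4 and rose by 1.23 ± 0.27 (edgeR adjusted p = 0.00259). Ppp1r15a, the subunit that directs a phosphatase to eIF2 and so ends the response, was at 209, 169 and 194 CPM in the second-prefix tCDCA libraries and at 90.5, 104 and 82.3 with DMSO. The first-prefix libraries of every group were low for it, from 39.3 to 55.9 CPM, and the fitted rise was 0.9 ± 0.19 (edgeR adjusted p = 0.00222). Eif4ebp1, a brake on cap-dependent translation, was at 146, 206, 181 and 129 CPM against 91.7, 97.2 and 127 and rose by 0.76 ± 0.19 (edgeR adjusted p = 0.00936; 0.054 without DMSO replicate 2 and 0.0704 without DMSO replicate 3). Each of these 3 genes had all tCDCA libraries above DMSO except the first-prefix library for Ppp1r15a.

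Atf5, Trib3 and Nupr1 also rose, but not without tCDCA replicate 3, which was the highest library for each, nor without DMSO replicate 3. Other single libraries also ended these calls. Atf5, a relative of ATF4, was at 45.8, 92.4 and 66 CPM in the second-prefix tCDCA libraries and 6.39 in the other, against 32.7, 22 and 32.4 (1.08 ± 0.29, edgeR adjusted p = 0.0205; 0.0948 and 0.146 without these libraries, and 0.0561 without tCDCA replicate 4). Trib3, a pseudokinase that restrains ATF4, was at 26.8, 52.2, 21.7 and 29.4 CPM against 10.7, 15.7 and 19.9 (1.03 ± 0.29, edgeR adjusted p = 0.0279; 0.227 and 0.101 without them, and 0.15 without DMSO replicate 2). Nupr1, a small nuclear stress protein, was at 92.6, 213, 107 and 200 CPM against 49.5, 79.4 and 72 (1.07 ± 0.3, edgeR adjusted p = 0.0411; 0.139 and 0.0902 without them). Nupr1 lost its call with 5 of the 7 libraries, the others being DMSO replicates 2 and 4 and tCDCA replicate 1 (edgeR adjusted p = 0.153, 0.0941 and 0.0729). The 200 CPM of Nupr1 is from the first-prefix library, where prefix and additive cannot be told apart. That library was 0.12 (log2 of CPM + 1) above the removed first-prefix DMSO library. The second-prefix tCDCA libraries lay above the DMSO libraries for each of these genes, and the first-prefix libraries of every group were low for Atf5, from 4.87 to 9.58 CPM.

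The gene for CHOP, the factor tied to cell death in lasting stress, did not rise. Ddit3 (ENSMUSG00000025408) was at 16.6, 26.6, 12.3 and 21.7 CPM with tCDCA and at 19.9, 31.8 and 21.3 with DMSO. The groups overlapped, and its change of -0.46 ± 0.31 (95% interval -1.08 to 0.17, edgeR adjusted p = 0.483) was the negative one among the 33. Atf3, a stress factor often induced with it, was at 104, 96.6, 118 and 97.2 CPM against 101, 109 and 104 (0.05 ± 0.17, interval -0.28 to 0.39). Cebpg differed by 0.14 ± 0.16 and Sesn2, an inhibitor of the growth kinase mTORC1, by 0.34 ± 0.35, neither past the threshold. Ddit4, another mTORC1 inhibitor, was at 387, 552, 410 and 475 CPM against 287, 309 and 373, all tCDCA libraries above DMSO, with a change of 0.53 ± 0.18 that missed the threshold (edgeR adjusted p = 0.0723).

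Of the secreted factors, Gdf15, a stress hormone gene, was at 17.6, 24 and 18.9 CPM in the second-prefix tCDCA libraries and at 11.3, 9.79 and 11.4 with DMSO. It rose by 0.94 ± 0.28 (1.91-fold, edgeR adjusted p = 0.0402), close to the threshold, and lost its call with 6 of the 7 libraries left out, all but tCDCA replicate 2 (edgeR adjusted p from 0.0622 to 0.172), and in the second-prefix libraries alone. Its first-prefix library was at 7.43 CPM, and those of the other groups at 4.24 to 7.68. Stc2, a secreted glycoprotein gene, was at 6.45, 8.09, 8.8 and 6.39 CPM against 4.28, 5.25 and 1.11, without overlap but with an uncertain change of 1.21 ± 0.51 (edgeR adjusted p = 0.175). Vldlr, a lipoprotein receptor gene, was at 29.5, 19.6, 34.2 and 41.2 CPM against 25.1, 17.1 and 11.6 (0.84 ± 0.3, edgeR adjusted p = 0.0966), and it passed without tCDCA replicate 3 (1.06, edgeR adjusted p = 0.0268) or DMSO replicate 2 (1.17, edgeR adjusted p = 0.0355).

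**Figure D2:**
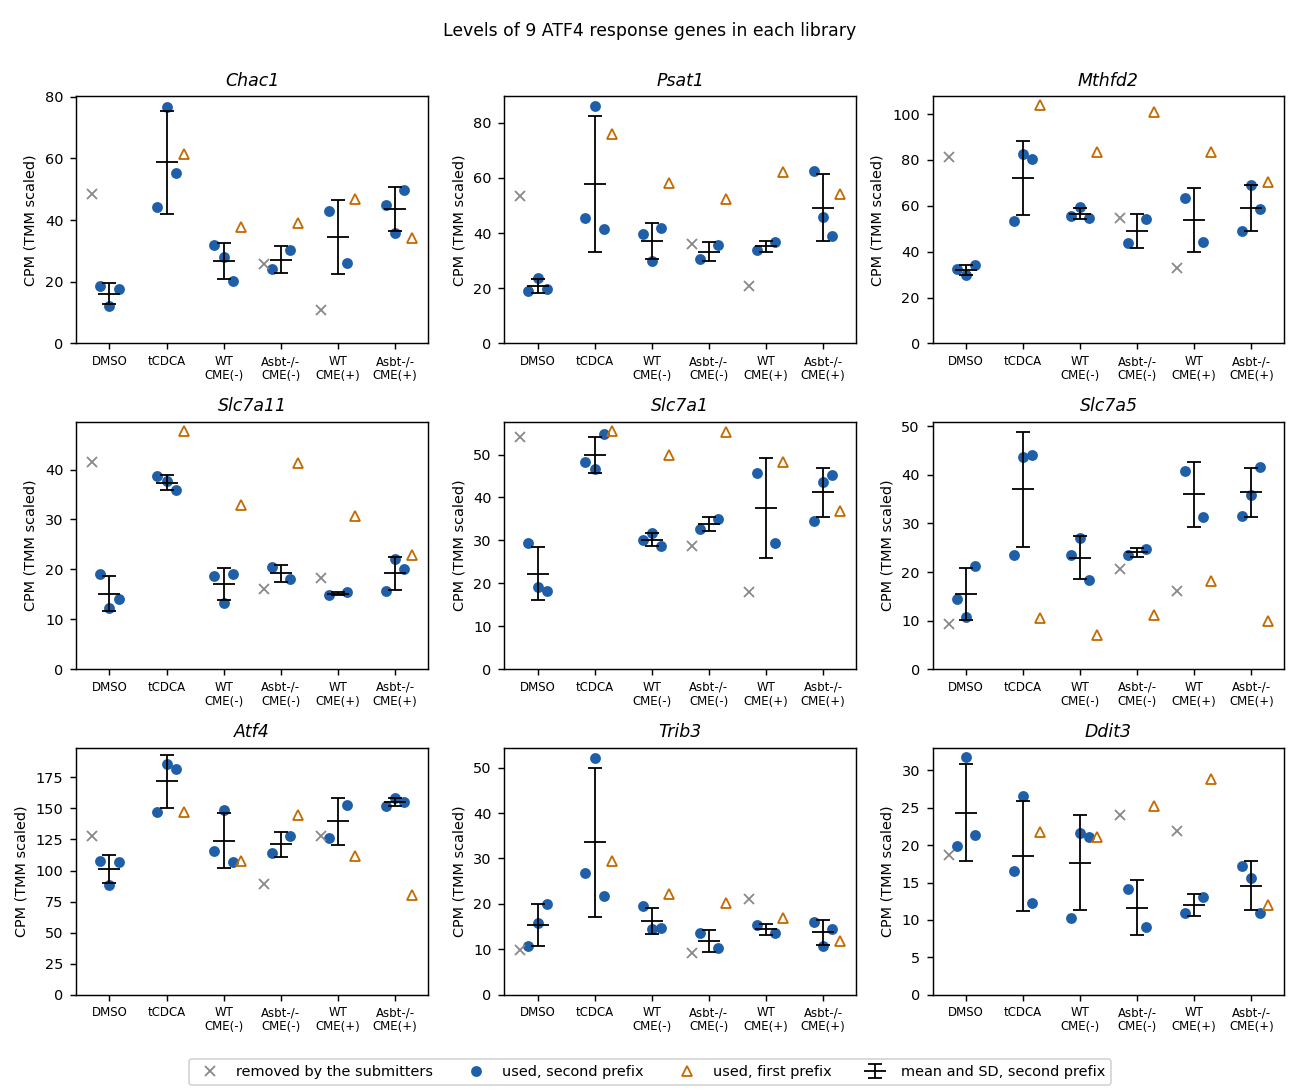
Levels of 9 of the genes (CPM, TMM scaled) in each library of the 6 groups: circles are used second-prefix libraries with their mean and SD, triangles used first-prefix libraries and crosses libraries the submitters removed. For Chac1, Psat1, Mthfd2, Slc7a11, Slc7a1 and Atf4 all tCDCA libraries lie above the 3 used DMSO libraries, and for Ddit3 the groups overlap. For Chac1, Psat1, Mthfd2, Slc7a11 and Slc7a1 the first-prefix libraries of every extract lie above the used DMSO libraries as well.

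RNA levels of cell type markers differed between the same groups. Of 12 enterocyte markers 9 fell with tCDCA and 0 rose (median log2 fold change -1.57), and their summed level was 4181, 2360, 2202 and 2696 CPM with tCDCA against 7249, 12081 and 8315 with DMSO. Of 7 Paneth cell markers 3 rose (median 0.71), with sums of 32533 to 50250 CPM against 24566 to 27917, highest in tCDCA replicate 3. Of 7 enteroendocrine markers 3 rose, of 6 goblet cell markers 2 fell, and of 8 myeloid markers 1, Cd14, rose. In second-prefix libraries, the summed level with tCDCA and with DMSO was 3604 to 4484 and 4681 to 6056 CPM for goblet markers and 322 to 444 and 244 to 279 for enteroendocrine markers. It was 226 to 437 and 450 to 474 for fibroblast markers (median log2 fold change -0.57) and 869 to 1899 and 902 to 1610 for smooth muscle markers (-0.04). Myeloid markers summed to 60.4 to 84.6 and 50.1 to 75.9 CPM, with S100a8 and S100a9 at 0 in DMSO, T and NK cell markers to 2.83 to 4.7 and 3.97 to 15.4, with Cd3g at 0 in DMSO, and B and plasma cell markers to 109 to 138 and 121 to 152, with Cd79a, Cd79b and Mzb1 at 0 in DMSO and Mzb1 at 0 with tCDCA. The used first-prefix libraries of all 5 other groups were higher for these immune markers, at 190 to 254 CPM for myeloid, 49 to 61.1 for T and NK cell and 338 to 472 for B and plasma cell markers. Their part in the changes of the ATF4 genes was not tested. In bulk fragments, fewer cells of a type and less RNA per cell cannot be told apart.

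Within the first prefix there is no used DMSO library. The removed DMSO library numbered 1, which had 0.5% DMSO in place of 0.6%, gives the only look. Against it, the first-prefix tCDCA library was higher for 29 of the 33 genes, with a median difference of 0.21 (log2 of CPM + 1), while 50.1% of all genes were higher and their median was 0.0. The differences were small for the genes that lead the main comparison: Chac1 was at 61.4 against 48.4 CPM, Psat1 at 76 against 53.3 and Slc7a1 at 55.6 against 54.1. For Slc7a11 the difference was 0.19, and Trib3 was at 29.4 against 9.95 CPM. Atf5, among the 17 rises of the main comparison, was lower in this tCDCA library (-0.2). Aldh1l2 (-0.35), Slc7a3 (-0.3) and Sesn2 (-0.1) were lower as well. The first-prefix library of Asbt-/- CME(+) was higher than the same removed DMSO library for 9 of the 33 genes (median difference -0.29). That of WT CME(-) was higher for 14 (-0.12), that of WT CME(+) for 20 (0.12) and that of Asbt-/- CME(-) for 23 (0.15). With 1 library on each side there is no replicate check. In the second-prefix libraries alone 16 of the 17 rises passed.

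The extracts were then set against the same 3 DMSO libraries, which all these comparisons share. With WT CME(-), 0 of the 33 genes passed (edgeR; 10 had an unadjusted p under 0.05, as had 9.38% of all genes, and DESeq2 called 2, Mthfd2 and Psat1), where 0.107% of all genes rose and 0.19% fell. The median log2 fold change was 0.32, and 30 of the 33 estimates were positive, as were 48.7% over all genes. With Asbt-/- CME(-), 0 passed as well (16 with an unadjusted p under 0.05, against 12.4% of all genes; DESeq2 called 2, Mthfd2 and Nupr1), against 0.381% of all genes that rose and 0.571% that fell, with a median of 0.5. Mthfd2 came nearest in both, with edgeR adjusted p of 0.06 and 0.0599.

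With the CME(+) extracts, taken as depleted of bile acids, a few genes rose. WT CME(+) raised 2 of the 33, Slc7a5 and Chac1, where 0.145% of all genes rose and 0.0305% fell (median of the 33, 0.33). Slc7a5 was at 40.7 and 31.3 CPM in the second-prefix libraries and 18.2 in the other (1.38 ± 0.29, edgeR adjusted p = 0.0239), and Chac1 at 42.9, 26 and 46.9 CPM (1.16 ± 0.26, edgeR adjusted p = 0.0499). Both calls were lost in the second-prefix libraries alone and without WT CME(+) replicate 1, WT CME(+) replicate 3, DMSO replicate 2 or DMSO replicate 3, and 1, Slc7a5, passed without DMSO replicate 4. Shmt2, at 47.6, 54.1 and 36.9 CPM, missed the threshold (1.1 ± 0.26, edgeR adjusted p = 0.0544).

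Asbt-/- CME(+) raised 5 of the 33, where 1.39% of all genes rose and 0.922% fell (median 0.42). They were Psat1, Chac1, Mthfd2, Slc7a5 and Shmt2, which lie in 3 of the arms. Psat1 was at 62.7, 46, 38.9 and 54.3 CPM (1.14 ± 0.23, 2.21-fold, edgeR adjusted p = 0.00324). Chac1 was at 45, 35.9, 49.8 and 34.1 CPM (1.29 ± 0.25, 2.45-fold, edgeR adjusted p = 0.00206). All these libraries lay above the used DMSO libraries, all of the second prefix, for both genes. The first-prefix library of this extract lay below the removed first-prefix DMSO library for Chac1 and close to it for Psat1. It was higher than that DMSO library for 9 of the 33 genes, with a median difference of -0.29 (log2 of CPM + 1).

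Slc7a5 was at 31.6, 35.9 and 41.7 CPM with Asbt-/- CME(+) in the second-prefix libraries (1.14 ± 0.27, edgeR adjusted p = 0.0138), Mthfd2 at 49.1, 69.2, 58.5 and 70.4 CPM (0.79 ± 0.19, edgeR adjusted p = 0.0187) and Shmt2 at 49.1, 56.7, 41.3 and 20 CPM (0.86 ± 0.24, edgeR adjusted p = 0.0417). The first-prefix library lay below every DMSO library for Shmt2, and for Slc7a5, at 9.93 CPM, as well. All second-prefix libraries lay above all DMSO libraries in 19 of the 33 genes, against 12.3% of all genes. They lay below in 1, Ddit3, against 11.2%. Without DMSO replicate 3, or without Asbt-/- CME(+) replicate 4, 2 of the 5 passed, Chac1 and Psat1. Without Asbt-/- CME(+) replicate 3, 3 passed, Slc7a5 with them. Shmt2 lost its call also without DMSO replicate 2, DMSO replicate 4 or Asbt-/- CME(+) replicate 2. Of the enterocyte markers 1 of 12, Treh, fell with this extract (median -0.67; summed level 3569 to 5730 CPM), of the enteroendocrine markers 1 of 7, Tac1, rose (0.96 ± 0.25), and of the fibroblast markers 1 of 6, Dcn, fell (-0.64 ± 0.17). Mitochondrial rRNA took 17.57, 18.8 and 19.02% of counts in the second-prefix libraries of this extract, below every DMSO library. The part of these values in the results was not tested.

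In the second-prefix libraries, 10 of the 33 genes lay above DMSO without overlap with WT CME(-) (6.71% of all genes), 11 with Asbt-/- CME(-) (12.6%) and 11 with WT CME(+) (12.4%). Chac1, Psat1, Mthfd2 and Gdf15 were among them with every additive. Ddit3 lay below all DMSO libraries with Asbt-/- CME(-), WT CME(+) and Asbt-/- CME(+), at 9.02 to 17.2 CPM in second-prefix libraries. Such a position held for 14.2%, 12.1% and 11.2% of all genes, and with WT CME(-) for 6.82% and none of the 33. With WT CME(+) Atf3 also lay below, at 76.7 and 90.5 CPM against 101 to 109 (-0.2 ± 0.18, edgeR adjusted p = 0.772). The Ddit3 changes of -0.8 ± 0.35, -0.69 ± 0.35 and -0.92 ± 0.31 did not pass (edgeR adjusted p = 0.321, 0.504 and 0.111). No gene of the 33 fell in any of the 14 comparisons.

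**Figure D3:**
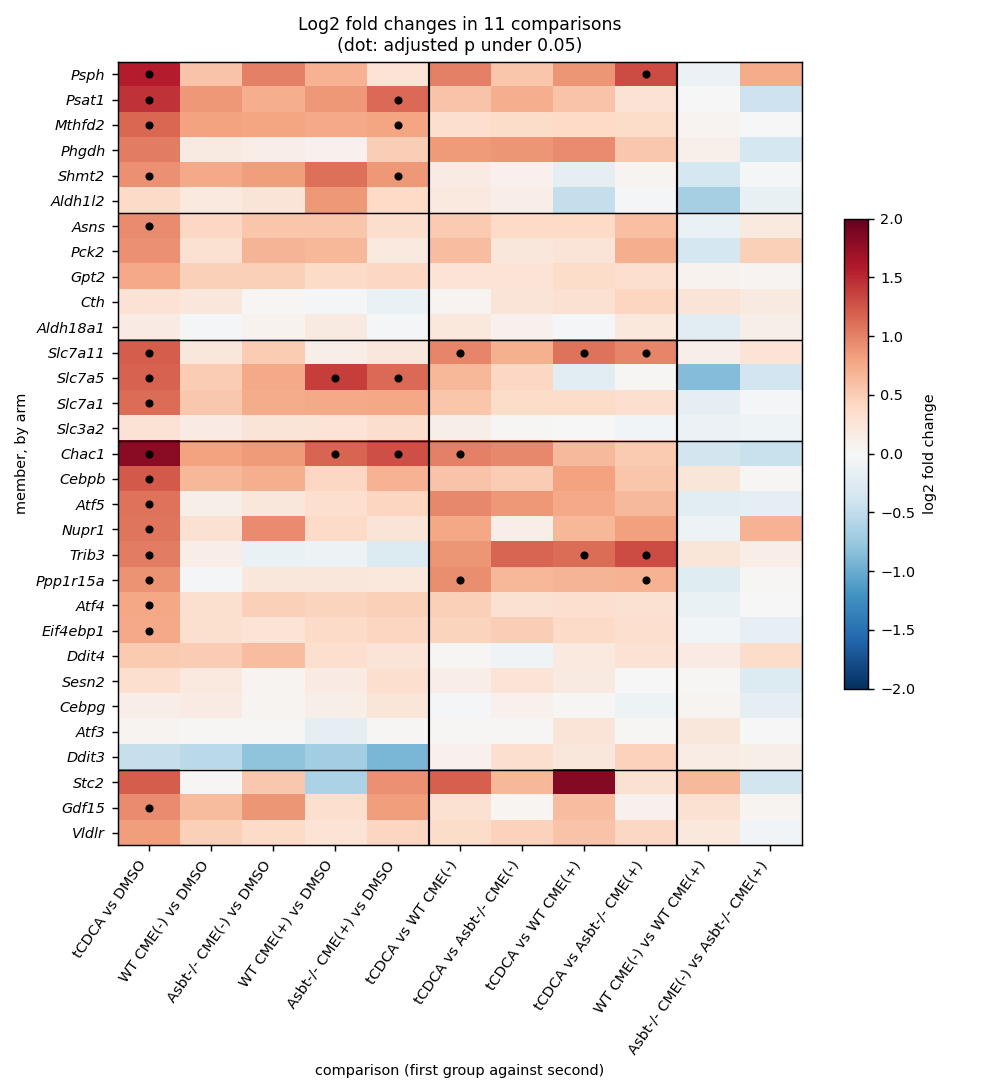
Log2 fold change (colour, limited to 2 in either direction) of 31 of the genes (rows, by arm) in 11 comparisons (columns); dots mark an edgeR adjusted p under 0.05. The first column, tCDCA against DMSO, holds 17 dots, the columns for WT and Asbt-/- CME(+) against DMSO hold 2 and 5, and the last 2 columns hold none.

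The next question was where tCDCA exceeded the extracts. Against WT CME(-), 3 of the 33 genes were higher with tCDCA (0.267% of all genes, with 0.274% lower): Chac1 by 1.01 ± 0.21, Slc7a11 by 0.98 ± 0.22 and Ppp1r15a by 0.93 ± 0.18 (edgeR adjusted p = 0.0132, 0.0196 and 0.00464). Against Asbt-/- CME(-), 0 passed (0.0457% of all genes higher and 0.0686% lower; 8 of the 33 and 8.3% of all genes with an unadjusted p under 0.05; DESeq2 called 2, Chac1 and Trib3). Against WT CME(+), 2 were higher (0.488% of all genes, with 1.06% lower), Slc7a11 by 1.09 ± 0.24 and Trib3 by 1.12 ± 0.29 (edgeR adjusted p = 0.0072 and 0.034). Against Asbt-/- CME(+), 4 were higher (0.869% of all genes, with 1.06% lower): Trib3 by 1.3 ± 0.26, Psph by 1.3 ± 0.32, Slc7a11 by 0.98 ± 0.21 and Ppp1r15a by 0.69 ± 0.17 (edgeR adjusted p = 0.00322, 0.0199, 0.00705 and 0.0229). These comparisons share the tCDCA libraries, and the difference was 0.71 ± 0.23 for Slc7a11 against Asbt-/- CME(-) (edgeR adjusted p = 0.297).

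Single libraries carried some of these calls. Without tCDCA replicate 3 the counts were 1 against WT CME(-), 1 against WT CME(+) and 2 against Asbt-/- CME(+), with Ppp1r15a, then Slc7a11, then both remaining. Without WT CME(-) replicate 4 the count against WT CME(-) was 1, and without WT CME(+) replicate 3 or 4 the count against WT CME(+) was 0. Without Asbt-/- CME(+) replicate 1 or 4 the count against Asbt-/- CME(+) was 2. Slc7a11 against WT CME(-) was also lost without tCDCA replicate 4 or WT CME(-) replicate 3. Against Asbt-/- CME(+), Ppp1r15a was also lost without tCDCA replicate 2 or 4, and Psph without Asbt-/- CME(+) replicate 3. Trib3 against WT CME(+) was also lost without WT CME(+) replicate 1.

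The levels show where the additives differed. Slc7a11 was at 18.6, 13.3, 19.1 and 32.9 CPM with WT CME(-), at 14.9, 15.4 and 30.7 with WT CME(+), at 20.4, 18 and 41.4 with Asbt-/- CME(-) and at 15.6, 22.1, 20 and 22.8 with Asbt-/- CME(+). In second-prefix libraries no extract reached the lowest tCDCA library, 35.8 CPM, and all lay near DMSO. Trib3 was at 14.4 to 19.5 CPM with WT CME(-), at 10.2 to 13.5 with Asbt-/- CME(-), 13.6 to 15.3 with WT CME(+) and 10.7 to 16.1 with Asbt-/- CME(+) in second-prefix libraries, and 21.7 to 52.2 with tCDCA. Slc7a5 stood otherwise: tCDCA differed from WT CME(+) by -0.21 (95% interval -0.72 to 0.3) and from Asbt-/- CME(+) by 0.03 (-0.43 to 0.5). Shmt2 differed from Asbt-/- CME(+) by 0.05 (-0.38 to 0.47). A difference anywhere within these intervals is compatible with the data, and a missed threshold does not show equal levels.

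CME(-) and CME(+) of the same donors were compared next. With WT extracts 0 of the 33 genes passed in either direction (edgeR; 2, and 6.33% of all genes, had an unadjusted p under 0.05; DESeq2 called 0), and 0 of all genes passed. With Asbt-/- extracts 0 passed (3, and 7.11% of all genes, with an unadjusted p under 0.05; DESeq2 called 0), against 0.0152% of all genes higher and 0.00762% lower. The medians of the 33 were 0.03 and -0.01. Slc7a5 came nearest with WT extracts: it was at 23.6, 27, 18.3 and 7.09 CPM with CME(-) and at 40.7, 31.3 and 18.2 with CME(+), a difference of -0.87 (95% interval -1.39 to -0.34, edgeR adjusted p = 0.439). With Asbt-/- extracts it was -0.39 (-0.92 to 0.14). Atf4 differed by -0.14 (-0.49 to 0.22) with WT extracts and by -0.01 (-0.37 to 0.35) with Asbt-/- extracts.

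The difference of these contrasts between donors passed for 0 of the 33 genes, as for 0 of all genes (1, and 3.74% of all genes, with an unadjusted p under 0.05; DESeq2 called 0). Asbt-/- against WT extracts gave 0 calls in both forms, in the 33 and in all genes (1 and 2 of the 33, and 4.05% and 4.24% of all genes, with an unadjusted p under 0.05; DESeq2 called 0 of the 33). Chac1 differed between donors by 0.05 (-0.42 to 0.53) with CME(-) and by 0.14 (-0.33 to 0.6) with CME(+), and Nupr1, the gene with the smallest p for CME(-), by 0.64 (0.04 to 1.24; edgeR adjusted p = 0.997).

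**Figure D4:**
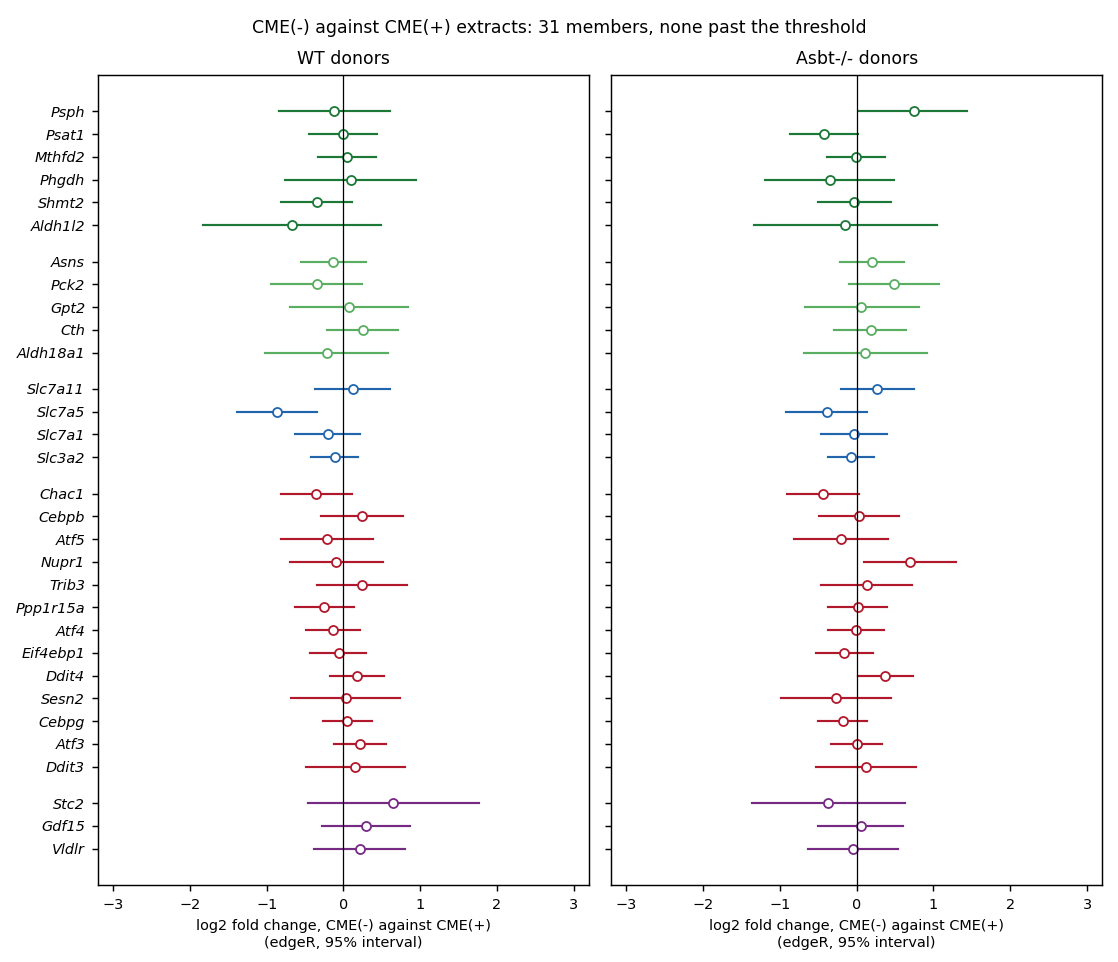
Log2 fold change of CME(-) against CME(+) for 31 of the genes (edgeR estimate and 95% interval) with extracts of WT donors (left, 4 and 3 libraries) and Asbt-/- donors (right, 3 and 4 libraries), by arm. Estimates lie between -0.87 and 0.74, most intervals include 0, and none passed the threshold.

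Other genes of the pathway were taken from lists apart from the 34, also chosen with earlier results of these data known. Over all genes 2.52% rose with tCDCA and 17.7% had an unadjusted p under 0.05, given as a scale and not as a test. Of 14 genes for eIF2 kinases and the eIF2 machinery, 2 rose with tCDCA, Eif2s2 (0.63 ± 0.17) and Eif2s1 (0.76 ± 0.21), both subunits of eIF2, and 0 fell (median 0.06). Of 20 cytosolic aminoacyl-tRNA synthetase genes, whose products load tRNAs and many of which ATF4 is known to induce, 3 rose and 0 fell: Cars by 0.95 ± 0.27, Aars by 0.64 ± 0.19 and Nars by 0.5 ± 0.15. Their median was 0.52 and 18 of the 20 estimates were positive (50.2% over all genes), 14 of the 20 with an unadjusted p under 0.05. Of 16 tested other carriers and enzymes linked to ATF4, 2 rose, the glutamine carriers Slc38a2 (0.84 ± 0.16, edgeR adjusted p = 4.18e-04) and Slc1a5 (0.74 ± 0.2, edgeR adjusted p = 0.0203), with a median of 0.28. Of 16 genes for folding and degradation in the endoplasmic reticulum, the arm of the stress response run mainly by other factors, 0 passed in either direction (edgeR; 1, Hspa5, with an unadjusted p under 0.05; DESeq2 called 0), with a median of 0.11; Hspa5, the main chaperone there, differed by 0.37 ± 0.17. With Asbt-/- CME(+), where 1.39% of all genes rose, 3 of the 20 synthetase genes did: Kars by 1.02 ± 0.2, Tars by 0.74 ± 0.19 and Farsa by 0.79 ± 0.21. In each of the other lists 1 gene rose with this extract: Eif2s2 by 0.83 ± 0.17, Slc1a5 by 0.73 ± 0.2 and, of the folding genes, Pdia4, a disulfide isomerase, by 0.92 ± 0.21 (edgeR adjusted p = 0.0028, 0.039 and 0.00902).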

How the data were processed

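QuantSeq 3' mRNA libraries of 24 ileal fragments in 6 groups of 4 were analysed. The authors deposited raw counts per gene, in whole numbers. Build GRCm39 and the tools HISAT2, Picard, cutadapt and FastQC are named, without versions, per the submitters' processing notes. For counting tool, annotation and strand the entry is "not given in the sources used here", so reads of overlapping or near-identical genes cannot be told apart. A 3' tag counts transcript ends, so levels were not compared between genes. The labels mark 3 libraries as removed (DMSO replicate 1, Asbt-/- CME(-) replicate 3 and WT CME(+) replicate 2), which left 21. In 3 labels the extract is written CAM, and titles set those groups. GENCODE M21 (GRCm38) gave symbols for 51884 of 57126 identifiers, which held 88.4% of counts; a second identifier of Ddit3 had no counts.

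Counts were fitted with edgeR 4.0.16 in R 4.3.3 (quasi-likelihood, filterByExpr, TMM, terms for group and column prefix), with p-values two-sided and adjusted by Benjamini-Hochberg over 13125 genes; a call is an adjusted p under 0.05, and intervals are 95%. The common biological coefficient of variation was 0.266, and the script was tested on simulated data. Totals of 2755149 to 5602265 counts set the precision for low genes. No 2 replicates of a group agreed within sampling noise (chi-square per degree of freedom at least 5.13). Alternatives were other scalings, filters, terms and library sets, and DESeq2 1.42.0.

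Per the labels, CME(-) and CME(+) replicates share extract donors, which pairs WT 3 and 4 and Asbt-/- 2 and 4; deviations of paired libraries correlated at 0.069, 0.214, 0.082 and -0.078 over 3388 genes.

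The 34 genes and all lists were chosen with earlier results of these data known. All 34 were accounted for by arm; values per library went to genes called against DMSO and to Atf4, Asns, Ddit3 and Trib3, and those given for other genes were chosen after their values were seen, as were Hspa5, Pdia4, Cd14, Treh, Tac1, Dcn, Kars, Tars and Farsa.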

Additional observations from a re-analysis of the deposited data

Results flagged for a closer look

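Within groups of 4 libraries, 99 comparisons of the highest or lowest library with the rest gave 7 that stood apart by Dixon's test, and chance gives about 1 in 20. High libraries were Mthfd2 in WT CME(-) replicate 1 at 83.4 CPM, Slc7a1 there at 49.8 CPM, Nupr1 there at 114 CPM, and Asns in Asbt-/- CME(+) replicate 1 at 80.9 CPM. Low ones were Atf4 and Cebpb in Asbt-/- CME(+) replicate 1 at 80.5 and 18.2 CPM, and Ddit3 in WT CME(-) replicate 2 at 10.3 CPM. All but the last are first-prefix libraries.

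The libraries the submitters removed were set against the 3 used DMSO libraries for the 17 genes that rose with tCDCA. The removed DMSO replicate 1 lay above all of them for 10 of the 17 (30.9% of all genes), the removed Asbt-/- CME(-) replicate 3 for 7 (26.1%) and the removed WT CME(+) replicate 2 for 3 (26.7%).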

How the results depend on the processing

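Of the 17 genes that rose with tCDCA against DMSO, 5 passed in all 18 alternatives: Chac1, Psat1, Mthfd2, Slc7a11 and Slc7a1. The count was 6 without the prefix term, 6 without both libraries numbered 3, 9 with these groups alone, and 10 to 18 with a library left out. Without scaling the median of all genes moved to 0.13. The sign changed for Aldh18a1 in tCDCA vs DMSO (-0.26 to 0.63 with a library left out) and for Atf3 in tCDCA vs DMSO (-0.01 without the prefix term).

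WT CME(-) against DMSO gave 0 calls, 2 without the filter, 2 with DESeq2 and 0 with a library left out. Asbt-/- CME(-) gave 0, 3 without the filter, 2 with DESeq2 and 0 to 3 with a library left out. WT CME(+) gave 2, but 0 without scaling, with all 24 libraries, with the second prefix alone, without the prefix term, with the replicate block, without both libraries numbered 3 and with these groups alone; it gave 1 without rRNA, 4 with DESeq2 and 0 to 2 with a library left out. Asbt-/- CME(+) gave 5, but 0 with all 24 libraries or without the prefix term, 2 without both libraries numbered 3 and 2 to 7 with a library left out.

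For tCDCA against WT CME(-) the count of 3 became 5 without the filter, 0 without the prefix term, 0 with these groups alone and 1 to 4 with a library left out. Against Asbt-/- CME(-) the 0 became 2 without the filter, 1 with all 24 libraries, 3 with the second prefix alone, 2 with DESeq2 and 0 to 2 with a library left out. Against WT CME(+) the 2 became 1 without scaling, 4 without the filter, 4 with all 24 libraries, 0 without the prefix term, 1 with the replicate block, 1 without both libraries numbered 3, 4 with DESeq2, 0 with these groups alone and 0 to 3 with a library left out. Against Asbt-/- CME(+) the 4 became 1 without scaling, 0 without the prefix term, 2 without both libraries numbered 3 and 2 to 4 with a library left out. The cause was not tested.

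tCDCA and DMSO libraries share only a number: their deviations correlated at 0.267, -0.159 and -0.164. With the replicate block 16 of the 17 passed. Extracts compared with each other gave 0 calls in every alternative, the replicate block by extract donor included. Genes under about 10 CPM, such as Aldh1l2, Stc2, Pycr1 and Slc7a3, are limited by depth.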
